A study of Mus musculus with 12 samples.

Results

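The genes described here are 40 interferon-stimulated genes (ISGs), chosen by name with earlier results of these data known. They were followed through a supernatant transfer between mouse pancreatic tumour cells and pancreatic stellate cells. All 40 were present in both count tables, out of 14360 gene identifiers that the tables have in common and 17335 that occur in either. The stellate line PSC4 represents the fibroblast-like stromal cells of the pancreas, and the KPC4 line comes from a pancreatic adenocarcinoma. PSC4 cells were kept for 24 h in supernatant of KPC4 cells that had received vehicle (Control-SU) or 10 µM gemcitabine, a nucleoside analogue used as chemotherapy (Gem-SU). The drug or vehicle had been given for 6 h and washed off, and the KPC4 cells had then conditioned starvation medium over 14 h. For the other recipient, PSC4 cells were held in one of the same 2 supernatants for 6 h, washed, and left to condition new starvation medium over 18 h. KPC4 cells then spent 24 h in the resulting Control-PSC-SU or Gem-PSC-SU. Each of the 4 groups had 3 biological replicates, so there were 12 RNA libraries. Recipient cells received supernatant only, each recipient is 1 line, and the line and the step of the transfer go together, so that they cannot be told apart.

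Type I interferons, such as interferon beta, bind the receptor pair IFNAR1 and IFNAR2, and the kinases JAK1 and TYK2 then phosphorylate STAT proteins. The complex ISGF3, of which STAT2 and IRF9 are parts, binds interferon-stimulated response elements (ISREs) in the promoters of ISGs, whereas interferon gamma acts mainly through gamma-activated sites (GAS). The products of ISGs detect viral nucleic acids, degrade or sequester viral RNA, attach the ubiquitin-like protein ISG15 to other proteins, disrupt pathogen vacuoles, or damp the signal again.

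Promoters of some members that fell or rose in PSC4 with Gem-SU are shown with their ISRE matches. They run from 250 bases before to 50 bases after the gene start, 5′ to 3′ of the gene, from RefSeq on GRCm38.p6. Capitals mark matches to the ISRE core GAAANNGAAA on either strand, and a match on the opposite strand appears as its reverse complement. Of the genes that fell, Ifit3 and its near-copy Ifit3b, Isg15 and Gbp2 are shown, and of those that rose, Rsad2 and Cmpk2.
Ifit3, chr19:34583279-34583578, plus strand: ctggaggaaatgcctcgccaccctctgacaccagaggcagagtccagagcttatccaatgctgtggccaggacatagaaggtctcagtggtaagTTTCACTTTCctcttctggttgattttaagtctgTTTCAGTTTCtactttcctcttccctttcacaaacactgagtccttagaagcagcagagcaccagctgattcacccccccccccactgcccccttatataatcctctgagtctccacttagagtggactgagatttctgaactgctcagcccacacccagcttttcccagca
Ifit3b, chr19:34607707-34608006, plus strand: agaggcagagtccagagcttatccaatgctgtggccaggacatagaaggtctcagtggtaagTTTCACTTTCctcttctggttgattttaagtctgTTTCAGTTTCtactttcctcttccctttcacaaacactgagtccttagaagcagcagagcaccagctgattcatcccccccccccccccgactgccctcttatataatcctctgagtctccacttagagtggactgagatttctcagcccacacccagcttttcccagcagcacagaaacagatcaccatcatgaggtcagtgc
Isg15, chr4:156200769-156201068, minus strand: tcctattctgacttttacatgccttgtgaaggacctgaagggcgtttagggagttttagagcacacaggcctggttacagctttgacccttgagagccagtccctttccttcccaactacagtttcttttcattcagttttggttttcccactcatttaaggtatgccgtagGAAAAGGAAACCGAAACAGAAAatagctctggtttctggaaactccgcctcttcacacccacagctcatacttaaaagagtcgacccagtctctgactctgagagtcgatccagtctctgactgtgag
Gbp2, chr3:142620413-142620712, plus strand: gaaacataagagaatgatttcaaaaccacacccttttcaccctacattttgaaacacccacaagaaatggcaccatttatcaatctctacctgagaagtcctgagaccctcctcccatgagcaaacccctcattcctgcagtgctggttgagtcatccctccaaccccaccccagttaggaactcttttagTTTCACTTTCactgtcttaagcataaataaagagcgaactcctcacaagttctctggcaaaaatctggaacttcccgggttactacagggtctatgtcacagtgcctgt
Rsad2, chr12:26456403-26456702, minus strand: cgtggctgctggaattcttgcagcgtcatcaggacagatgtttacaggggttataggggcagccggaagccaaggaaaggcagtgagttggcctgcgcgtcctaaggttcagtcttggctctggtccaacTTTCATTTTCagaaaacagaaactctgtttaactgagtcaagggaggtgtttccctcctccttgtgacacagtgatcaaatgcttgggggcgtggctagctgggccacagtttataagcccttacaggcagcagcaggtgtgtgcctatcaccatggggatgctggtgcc
Cmpk2, chr12:26468965-26469264, plus strand: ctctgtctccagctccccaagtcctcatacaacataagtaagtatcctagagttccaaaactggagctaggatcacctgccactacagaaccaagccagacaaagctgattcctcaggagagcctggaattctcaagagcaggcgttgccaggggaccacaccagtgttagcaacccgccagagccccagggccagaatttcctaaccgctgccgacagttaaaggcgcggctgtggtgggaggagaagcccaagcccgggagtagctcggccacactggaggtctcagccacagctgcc
The windows of Ifit3 and Ifit3b each held 2 ISRE cores, that of Isg15 held 3 overlapping ones, those of Gbp2 and Rsad2 held 1, and that of Cmpk2 held 0. Promoters of 30 of the 40 members could be matched by symbol. An ISRE core was found for 16 of these (53.3%), against 3.99% of 27025 genes with a promoter in the table. The GAS core TTCNNNGAA was found for 8 (26.7%), against 9.55% of all genes. In the groups defined below, the ISRE core was in 9 of 11 matched members that fell in PSC4 and in 1 of 3 matched members that rose. Most of the 7 that rose could not be matched, namely Mx1, Mx2, Usp18 and Ifi27, so the 2 sides cannot be compared. Zbp1 and Rtp4, which fell, could not be matched either. It was in 6 of 16 matched members that did not pass. The windows shown are a selection: Ifit2 and Oasl2, which fell, and Oasl1, which rose, had no ISRE core and are not shown. A match is a string of letters and no measured binding site, and no match says only that the letters are absent from this window.

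The level of most members was much higher in stellate than in tumour cells in the control groups. In one edgeR quasi-likelihood fit of all 12 libraries, 34 of 40 members were higher in PSC4 with Control-SU than in KPC4 with Control-PSC-SU at an adjusted p under 0.05, whereas 22.3% of all 13632 genes tested were. The median log2 difference was 2.55 for the members and 0.04 for all genes tested. Levels are in CPM, counts scaled to a common library size, here over all libraries together. Zbp1, a sensor of Z-form nucleic acids, averaged 167 CPM ± 21.8 in PSC4 and 1.15 CPM ± 0.255 (SD, n = 3 each) in KPC4, a log2 difference of 7.18 with a standard error (SE) of 0.51 (edgeR, adjusted p = 8.26e-08). Gbp2, a guanylate-binding protein that attacks pathogen vacuoles, averaged 334 CPM ± 72.5 against 9.16 CPM ± 1.43 (log2 difference 5.19, SE 0.28, adjusted p = 7.03e-09 in edgeR). Rsad2, which encodes the antiviral enzyme viperin, averaged 147 CPM ± 15.2 against 2.02 CPM ± 1.43 (log2 difference 6.18, SE 0.80, adjusted p = 3.65e-05 in edgeR). The smallest passing differences towards PSC4 were those of Parp9 (0.48) and Irgm1 (0.79).

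Oasl1, an OAS-like protein that restrains translation of Irf7, was the exception, at 17.4 CPM ± 1.49 in PSC4 and 46.5 CPM ± 11.3 in KPC4 (log2 difference -1.42, SE 0.34, adjusted p = 0.00398 in edgeR). Trim25, Dtx3l, Ifih1, Xaf1 and Samd9l did not pass, with differences between -0.10 and 0.68. Per kilobase of exon (GENCODE M21), the highest members in PSC4 with Control-SU were Bst2 (1206 CPM per kb), Isg15 (493), Ifit3 (425) and Ifit1 (316). In KPC4 with Control-PSC-SU they were Bst2 (194 CPM per kb), Trim25 (72.9), Eif2ak2 (52.6) and Irf7 (49.3).

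**Figure D1:**
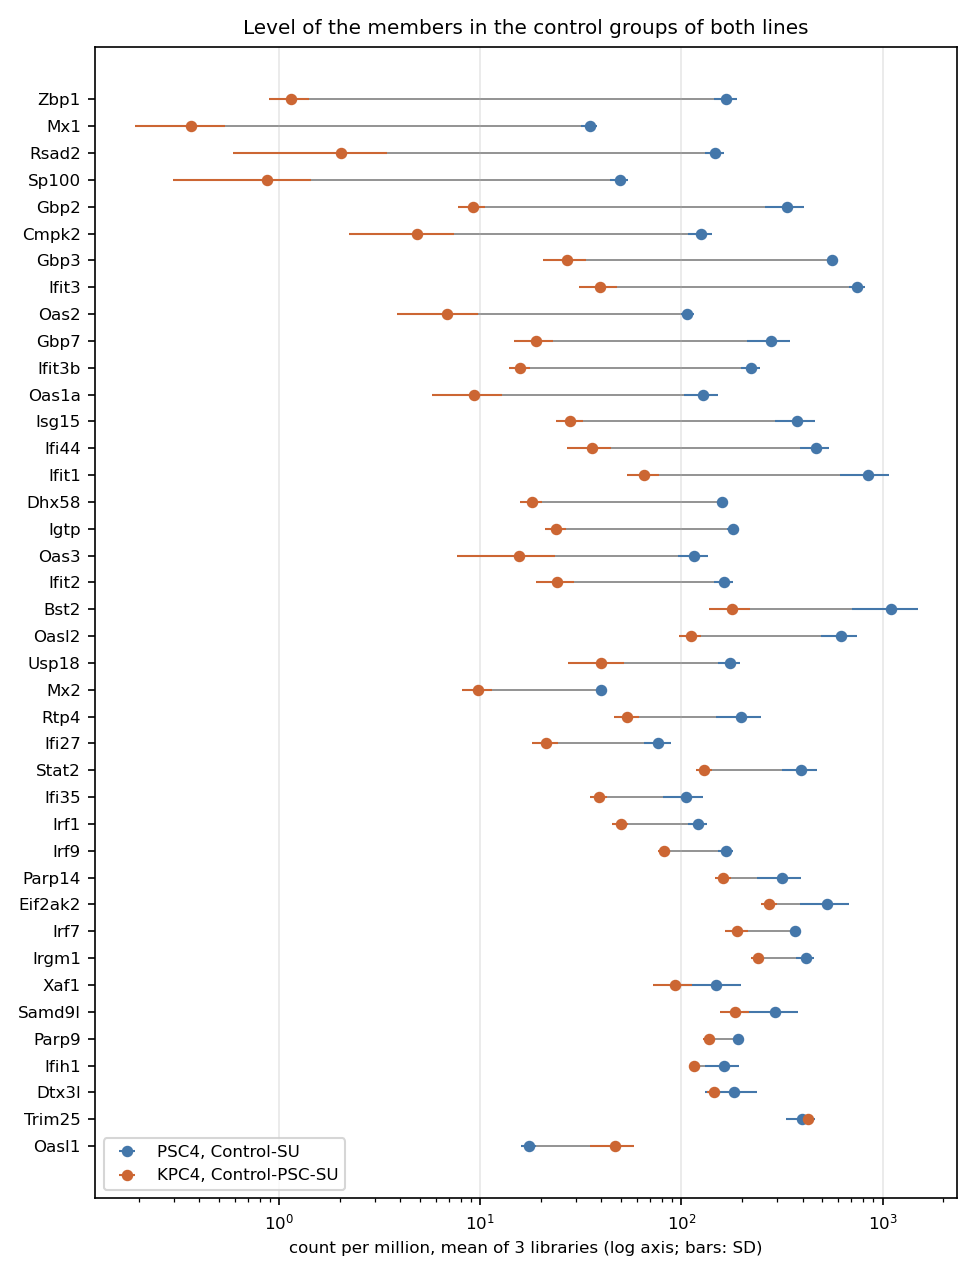
Level of the 40 members in the control groups, in CPM on a log axis, as the mean of 3 libraries with the SD as bars. Members are ordered by the log2 difference between lines, from Zbp1 (7.18) at the top to Oasl1 (-1.42) at the bottom.

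The total count per library was 29559414 to 38138356 in PSC4 and 26354328 to 34744150 in KPC4, so that 3 counts correspond to 0.078 to 0.113 CPM. All 12 stellate markers checked were at 1 CPM or more in PSC4, and all 12 markers of pancreatic epithelium in KPC4. In KPC4 6 stellate markers were at 1 CPM or more as well. The listed ones with a row there summed to 3580 to 4438 CPM with Control-PSC-SU and 3440 to 3909 CPM with Gem-PSC-SU. Vim was higher in the KPC4 than in the PSC4 control group (2630 against 1687 CPM, scaled over all libraries). The summed stellate markers of PSC4 lay between 11420 and 11690 CPM with Control-SU and between 5685 and 6577 CPM with Gem-SU, where 8 of the 12 fell and Tagln rose (log2 fold change 3.25, adjusted p = 3.24e-05 in edgeR). The 8 listed epithelial markers with a row in the PSC4 table summed to 35.1 to 40.7 CPM with Control-SU and 58.0 to 66.1 CPM with Gem-SU, where Sox9 and Krt19 rose and Muc1 fell, and Epcam and Cdh1 had no row there. Endothelial markers summed to 1.57 to 2.87 CPM with Control-SU and 3.53 to 5.65 CPM with Gem-SU in PSC4. Immune markers summed to at most 8.91 CPM in PSC4 and 2.07 CPM in KPC4. The part of these shifts in the ISG results was not tested. In bulk RNA, fewer cells of a kind and less RNA per cell cannot be told apart.

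With Gem-SU the members in PSC4 split in direction. Transcripts of Mx1, Mx2, Rsad2, Oasl1, Usp18, Cmpk2 and Ifi27 rose. Those of all 4 IFIT genes, Isg15, Bst2, Rtp4 and most of the interferon-inducible GTPases fell. With the adjusted p (Benjamini-Hochberg, over 13347 genes) of edgeR's quasi-likelihood test held to 0.05, 20 of 40 members passed, against a background of 46.3% of all genes tested, so that the share itself was near that of any gene. The 7 that rose compare with a background of 24.3% and the 13 that fell with 22% of genes tested. The median log2 fold change was -0.07 for the members and -0.0032 for all genes. Control and Gem libraries did not overlap for 21 members, 8 with Gem-SU above and 13 below, against 56.4% of all genes tested. Without Gem-SU replicate 2 the same test called 13 members, 6 higher and 7 lower, against a background of 29.8%. A single fit of all 12 libraries also called 13, 5 higher and 8 lower, against 40.1%. Gem-SU replicate 1 was the lowest of its 3 libraries for 29 of 40 members, whereas it was the lowest for 38.2% of 13349 genes. Without it 21 members passed, 9 higher and 12 lower, against a background of 49.9%.

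**Figure D2:**
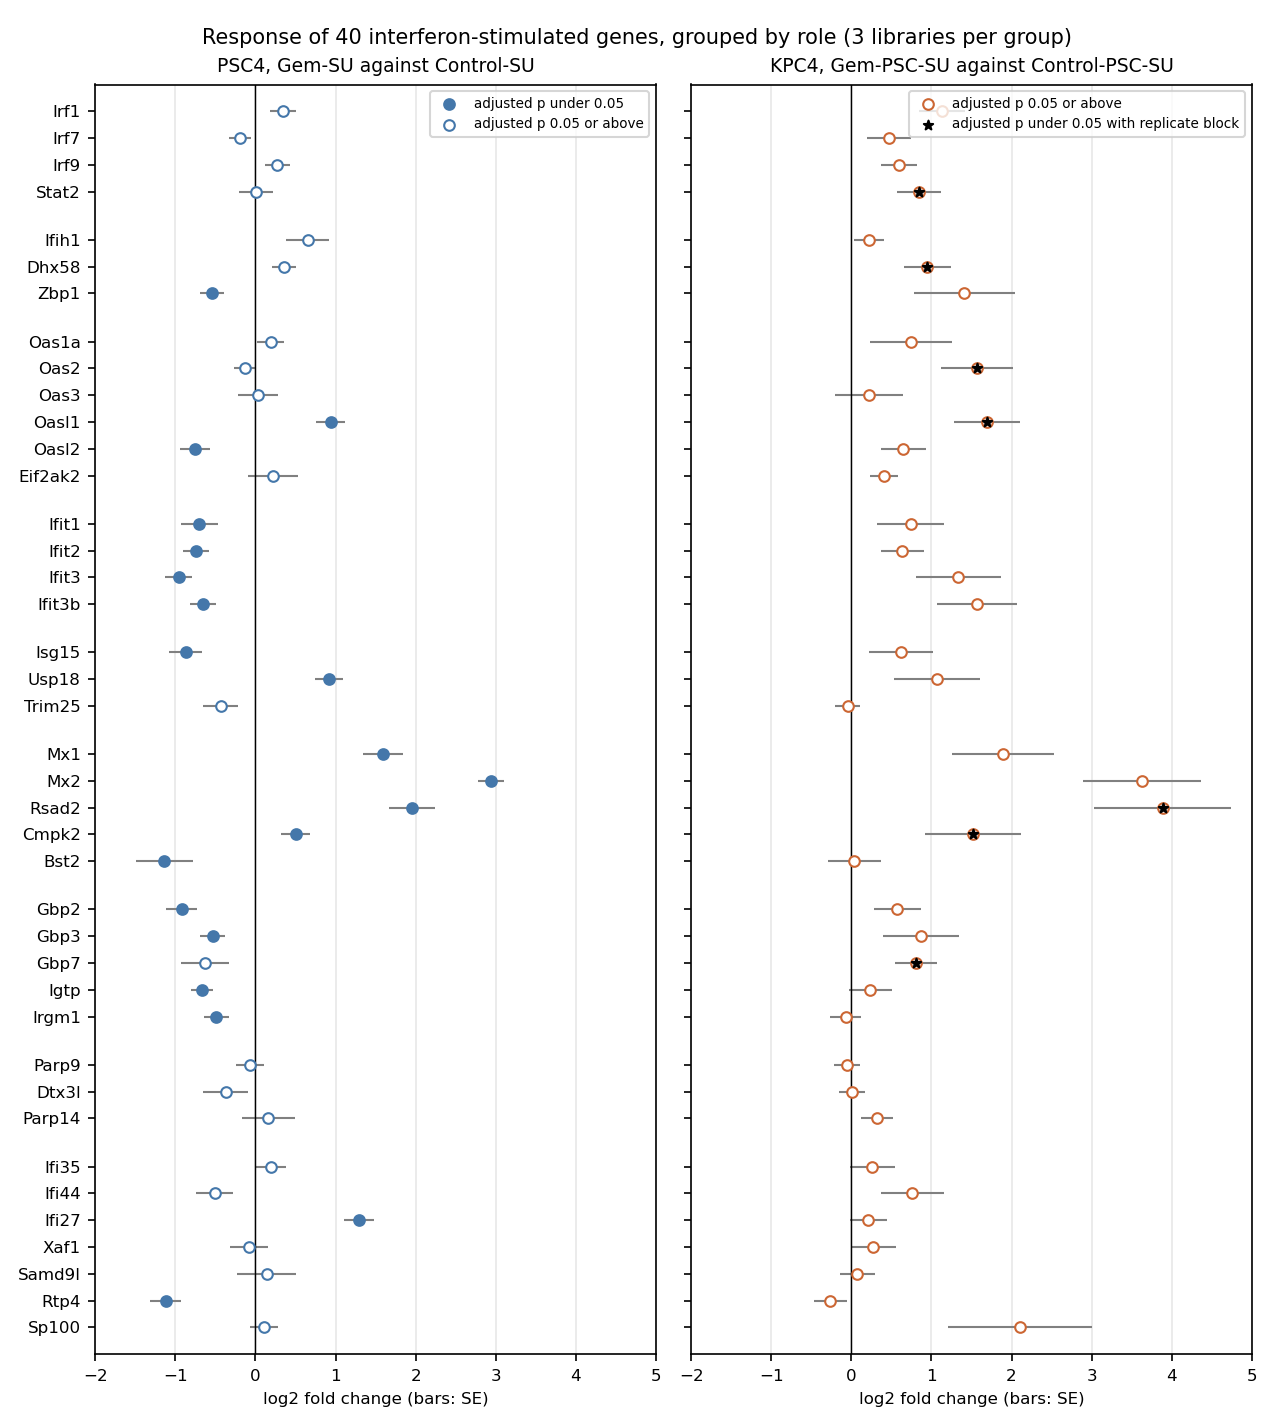
Log2 fold change (horizontal axis) with its SE of each of the 40 members, grouped by role, in PSC4 (left) and KPC4 (right). Filled points passed an adjusted p of 0.05, and stars mark the 7 KPC4 members that passed with the replicate number as a block. In PSC4 the 7 filled points right of 0 reach 2.95 (Mx2) and the 13 left of 0 reach -1.14 (Bst2).

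The Mx and viperin genes carried the largest increases. Mx2 (ENSMUSG00000023341), a dynamin-like antiviral GTPase, measured 38.1, 40.9 and 39.0 CPM with Control-SU and 258, 343 and 309 CPM with Gem-SU. Every Gem-SU library thus stood far above every control, a log2 fold change of 2.95 (SE 0.16, adjusted p = 2.05e-05 in edgeR). Its paralog Mx1 (ENSMUSG00000000386) measured 36.8, 31.3 and 35.8 CPM with Control-SU and 65.2, 120 and 129 CPM with Gem-SU (log2 fold change 1.60, SE 0.25, adjusted p = 0.00125 in edgeR). Gem-SU replicate 1 was the lowest of its group but still above all controls. The exon sequences of Mx1 and Mx2 share little, as 8.12% and 7.96% of their 31-base words occur in another gene.

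Rsad2 (ENSMUSG00000020641) measured 142, 133 and 161 CPM with Control-SU and 328, 600 and 758 CPM with Gem-SU. The groups did not overlap, and the log2 fold change was 1.95 (SE 0.29, adjusted p = 9.89e-04 in edgeR). Cmpk2 (ENSMUSG00000020638), a mitochondrial nucleotide kinase whose gene lies beside Rsad2, measured 136, 105 and 128 CPM with Control-SU and 140, 190 and 193 CPM with Gem-SU. The lowest Gem-SU library exceeded the highest control only slightly, and the log2 fold change of 0.50 (SE 0.18, adjusted p = 0.0455 in edgeR) was the weakest of the calls, passing in 7 of 14 other settings. It did not pass without any one of the 3 Control-SU libraries or of Gem-SU replicates 2 and 3 (adjusted p = 0.0555 to 0.161 in edgeR). Bst2 (ENSMUSG00000046718), the tetherin that holds budding virus at the cell surface, was the member of this group that fell. It measured 1462, 694 and 1112 CPM with Control-SU and 723, 439 and 322 CPM with Gem-SU (log2 fold change -1.14, SE 0.35, adjusted p = 0.0278 in edgeR). Its groups overlapped, because Gem-SU replicate 1 lay above Control-SU replicate 2, and it passed in 10 of 14 other settings. Leaving out Control-SU replicate 1 or 3 or Gem-SU replicate 2 or 3 ended the call (adjusted p = 0.0599 to 0.101 in edgeR).

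All 4 IFIT genes fell. IFIT proteins bind foreign RNA and block its translation. Ifit3 (ENSMUSG00000074896) measured 712, 824 and 689 CPM with Control-SU and 353, 429 and 363 CPM with Gem-SU (log2 fold change -0.96, SE 0.17, adjusted p = 0.00208 in edgeR). Ifit3b (ENSMUSG00000062488) measured 218, 245 and 193 CPM with Control-SU and 118, 153 and 145 CPM with Gem-SU (log2 fold change -0.66, SE 0.16, adjusted p = 0.0109 in edgeR). In both, every Gem-SU library lay below every control. Since 61.8% of the 31-base words of Ifit3 also occur in another gene, Ifit3b, and 55.2% of those of Ifit3b do likewise, the share of each is uncertain. In the single fit of all 12 libraries neither Ifit3 nor Ifit3b passed (adjusted p = 0.0737 and 0.17 in edgeR). Their sum averaged 961 CPM ± 96.9 under Control-SU and 520 CPM ± 56.6 under Gem-SU (SD, n = 3 each), and its groups did not overlap. Ifit2 (ENSMUSG00000045932), whose exons share no such word, measured 147, 183 and 155 CPM with Control-SU and 82.8, 112 and 95.5 CPM with Gem-SU (log2 fold change -0.74, SE 0.16, adjusted p = 0.00666 in edgeR). Ifit1 fell by 0.70 on the log2 scale (adjusted p = 0.0351 in edgeR), a call that held in 9 of 14 other settings and not in the fit of all 12 libraries or without Control-SU replicate 2 or 3 or Gem-SU replicate 1 or 2 (highest adjusted p 0.12 in edgeR).

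The ISG15 system split within itself. Isg15 (ENSMUSG00000035692), the ubiquitin-like modifier, measured 462, 303 and 353 CPM with Control-SU and 246, 193 and 171 CPM with Gem-SU (log2 fold change -0.87, SE 0.21, adjusted p = 0.00986 in edgeR, and 0.0509 without Gem-SU replicate 2). Usp18 (ENSMUSG00000030107), the protease that removes ISG15 and also blocks the receptor chain IFNAR2, measured 190, 149 and 177 CPM with Control-SU and 272, 368 and 338 CPM with Gem-SU (log2 fold change 0.92, SE 0.17, adjusted p = 0.00315 in edgeR, and 0.126 in the fit of all 12 libraries). The RNA of the modifier was thus lower and that of its protease higher in all 3 Gem-SU libraries than in any control. Trim25, a ubiquitin and ISG15 ligase, had a log2 fold change of -0.44 that did not pass (adjusted p = 0.141).

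Of the OAS genes and the kinase PKR, which respond to double-stranded RNA, the OAS-like pair moved apart. Oasl1 (ENSMUSG00000041827) measured 17.1, 15.9 and 18.6 CPM with Control-SU and 27.1, 34.1 and 38.05 CPM with Gem-SU (log2 fold change 0.94, SE 0.18, adjusted p = 0.00352 in edgeR). Oasl2 (ENSMUSG00000029561) measured 521, 763 and 559 CPM with Control-SU and 340, 369 and 382 CPM with Gem-SU (log2 fold change -0.76, SE 0.19, adjusted p = 0.0111 in edgeR). Neither pair of groups overlapped, and both calls held in all 14 other settings. Oas1a, Oas2, Oas3 and Eif2ak2, which encodes PKR, did not pass, with log2 fold changes of 0.19, -0.13, 0.03 and 0.22. Oas1a shares 68.8% of its 31-base words with other genes, mainly Oas1g.

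The interferon-inducible GTPases, which act on vacuoles of intracellular pathogens and respond strongly to interferon gamma, all had values below 0, and 4 of 5 fell. Gbp2 (ENSMUSG00000028270) measured 300.3, 416 and 276 CPM with Control-SU and 157, 195 and 171 CPM with Gem-SU (log2 fold change -0.92, SE 0.19, adjusted p = 0.00504 in edgeR). Igtp, Gbp3 and Irgm1 fell by 0.67, 0.54 and 0.49 on the log2 scale (adjusted p = 0.00425, 0.0209 and 0.0286 in edgeR). Gem-SU libraries of these 4 lay below all controls. Gbp3 did not pass without Gem-SU replicate 2 or 3 or in the fit of all 12 libraries, nor Irgm1 without any one of Control-SU or Gem-SU replicates 2 and 3, and their highest adjusted p over all settings were 0.235 and 0.106. Gbp7, with a log2 fold change of -0.63, did not pass (adjusted p = 0.112), and its groups overlapped.

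Among the remaining members, Ifi27 rose and Rtp4 and Zbp1 fell. Ifi27 (ENSMUSG00000064215) measured 81.7, 63.0 and 83.0 CPM with Control-SU and 184, 223 and 152 CPM with Gem-SU (log2 fold change 1.30, SE 0.19, adjusted p = 9.03e-04 in edgeR). Rtp4 (ENSMUSG00000033355), known as a chaperone of membrane receptors, measured 177, 254 and 159 CPM with Control-SU and 96.6, 83.1 and 91.8 CPM with Gem-SU (log2 fold change -1.12, SE 0.19, adjusted p = 0.00213 in edgeR). Groups did not overlap for either. Zbp1 fell by 0.54 on the log2 scale (adjusted p = 0.0159 in edgeR), but did not pass without Gem-SU replicate 2 or in the fit of all 12 libraries (highest adjusted p 0.231). Ifi35, Ifi44, Xaf1, Samd9l and Sp100 did not pass, with log2 fold changes from -0.51 (Ifi44) to 0.19 (Ifi35).

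Neither the transcription factors nor the PARP9, DTX3L and PARP14 group, which modify proteins by ADP-ribose and ubiquitin, had a member that passed. Irf1, Irf7, Irf9 and Stat2 had log2 fold changes of 0.34, -0.19, 0.27 and 0.00 with adjusted p of 0.117 or more in edgeR. Of the cytosolic RNA sensors, Ifih1 (MDA5) measured 0.65 and Dhx58 (LGP2) 0.36 in log2 fold change, with adjusted p of 0.0735 and 0.0785. With Gem-SU replicate 1 left out, both passed. Ifih1 also passed with all libraries in DESeq2 and with the replicate block, whereas Dhx58 passed in no other setting.

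**Figure D3:**
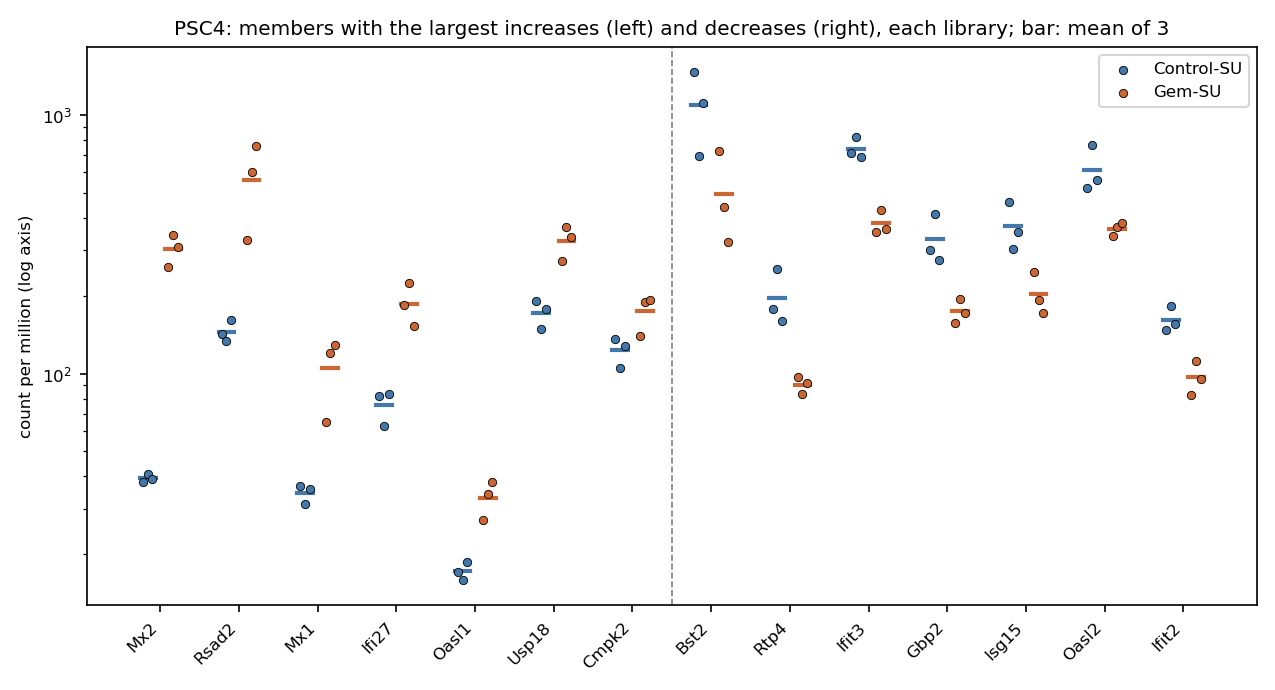
CPM (log axis) of the 7 largest increases and the 7 largest decreases among the PSC4 members that passed, 1 point per library and a bar at the mean of 3. Groups are separate for every gene shown except Bst2, where Gem-SU replicate 1 (723 CPM) exceeds Control-SU replicate 2 (694 CPM).

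In KPC4 most members were higher with Gem-PSC-SU, but none passed the test. Of 40 members, 36 had a log2 fold change above 0, where 48.1% of all 13236 genes tested did, and the median was 0.64 against -0.02. At an adjusted p under 0.05, edgeR called 0 members, as it called 0% of all genes. At an unadjusted p under 0.05 it had 16 members, all higher, where 17% of all genes were under it and 10.9% were higher. Limma-voom also called 0. DESeq2 called 7 (Irf1, Dhx58, Oas2, Oasl1, Ifit3b, Mx2 and Rsad2), all higher, against a background of 5.95% of its tested genes in either direction. By the authors' deposited table, members passed in 8 cases, all higher, where 5.17% of its genes with an adjusted p passed in either direction. With Gem-PSC-SU above every control, 11 members had groups that did not overlap (background 11.8%), and 0 lay below.

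Same-numbered KPC4 libraries deviated together from their group means, so the replicate number was added as a block. The labels state no pairing, and the block was chosen from these same counts. With the block, 7 members passed and all were higher (Oas2, Rsad2, Oasl1, Cmpk2, Gbp7, Dhx58 and Stat2). Of all genes, 8.85% passed in either direction and 6.07% were higher. Gem-PSC-SU replicate 1 stood apart: it was the lowest of its 3 libraries for 38 of 40 members, whereas it was the lowest for 39.9% of 13261 genes. It exceeded all 3 controls for 13 members and lay below all 3 for 18, while replicate 2 exceeded all controls for 32 and replicate 3 for 35. Control-PSC-SU replicate 1 was the lowest control for 26 of 40 members, against 34.6% of genes. Without Gem-PSC-SU replicate 1 edgeR called 20 members, all higher, against a background of 8.3% in either direction. Without any other single library it called 0.

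**Figure D4:**
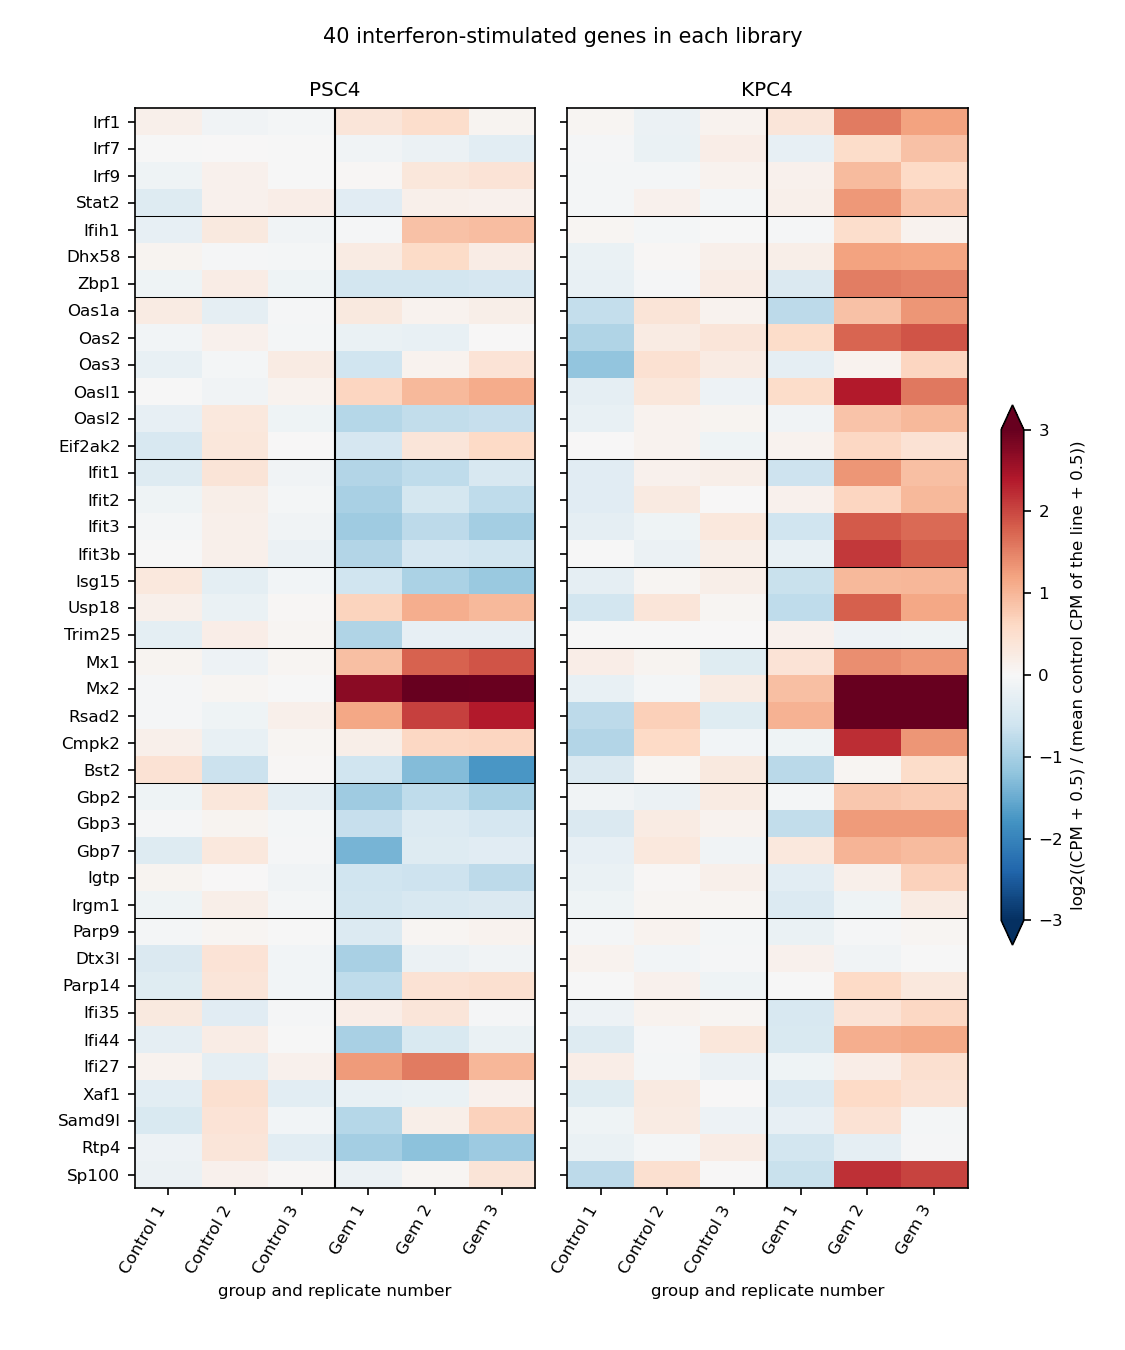
Log2 of each member's CPM relative to the mean of the 3 controls of its line, with 0.5 CPM added to both, for each library of PSC4 (left) and KPC4 (right). Red is above and blue below the control mean, and the scale ends at 3 in both directions. In KPC4 the Gem replicate 1 column stays close to the controls or below for most members, and 38 of 40 have their lowest Gem value there.

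Mx2 had the smallest p of the members in KPC4. It measured 8.18, 9.22 and 11.4 CPM with Control-PSC-SU and 18.3, 227 and 111 CPM with Gem-PSC-SU. All Gem-PSC-SU libraries were higher but far apart from each other, with a log2 fold change of 3.63 (SE 0.74, adjusted p = 0.115 in edgeR, and 0.143 with the block). Rsad2 measured 0.951, 3.56 and 1.44 CPM with Control-PSC-SU and 4.59, 55.8 and 28.0 CPM with Gem-PSC-SU (log2 fold change 3.89, SE 0.85, adjusted p = 0.119 in edgeR). With the block its log2 fold change was 3.60 (SE 0.40, adjusted p = 0.00397 in edgeR), so that it passed. Even the highest KPC4 library stayed below the lowest PSC4 control of 133 CPM. Levels in the separate tables are scaled separately.

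Oasl1 measured 38.1, 58.0 and 41.0 CPM with Control-PSC-SU and 67.6, 239 and 137 CPM with Gem-PSC-SU (log2 fold change 1.69, SE 0.41, adjusted p = 0.124 in edgeR, and 0.0119 with the block). Oas2 (ENSMUSG00000032690), a synthetase of the second messenger that activates RNase L, measured 3.37, 8.004 and 8.71 CPM with Control-PSC-SU and 10.0, 23.5 and 26.2 CPM with Gem-PSC-SU. Its groups did not overlap, and the log2 fold change was 1.57 (SE 0.45, adjusted p = 0.162 in edgeR, and 0.00293 with the block). Irf1 (ENSMUSG00000018899), a transcription factor, measured 51.1, 43.6 and 52.7 CPM with Control-PSC-SU and 63.3, 146 and 114 CPM with Gem-PSC-SU (log2 fold change 1.13, SE 0.29, adjusted p = 0.138 in edgeR, and 0.0545 with the block). Dhx58 (ENSMUSG00000017830) measured 15.2, 18.2 and 19.7 CPM with Control-PSC-SU and 20.2, 41.4 and 41.0 CPM with Gem-PSC-SU (log2 fold change 0.95, SE 0.29, adjusted p = 0.176 in edgeR, and 0.035 with the block). For Irf1, Oasl1 and Dhx58, too, every Gem-PSC-SU library was above every control, with replicate 1 the lowest.

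By role, the Mx, viperin and tetherin group had the highest median log2 fold change in KPC4 (1.89), followed by the IFIT genes (1.04). Those of the 3 nucleic acid sensors and the 4 transcription factors were 0.95 and 0.72. The PARP9, DTX3L and PARP14 group was at 0.01. The 4 members below 0 were Rtp4 (-0.27), Irgm1 (-0.07), Parp9 (-0.05) and Trim25 (-0.05). Several members were barely present, as the mean of Mx1 was 0.357 CPM in the control group and 1.34 CPM in the Gem-PSC-SU group, from 5 to 57 counts per library.

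The 2 lines were then compared by testing the difference between their responses, the PSC4 log2 fold change minus the KPC4 one, in the fit of all 12 libraries. Of the 40 members, 37 had a difference below 0, and the median was -0.81 against -0.09 for all genes tested. At an adjusted p under 0.05, 9 members passed, against a background of 9.85% of 13632 genes. Of these, 8 were lower, where 5.1% of all genes were (Gbp2, Ifit2, Oasl2, Ifit3b, Ifit3, Oas2, Gbp7 and Zbp1), and Ifi27 was higher. With the replicate block 19 passed, 18 lower and 1 higher, against a background that rose to 21.9%. Ifit3b no longer did (adjusted p = 0.0731 in edgeR). The block covered both lines in this fit, although the PSC4 libraries were not taken as paired. The count depended on single libraries: leaving out Gem-PSC-SU replicate 1 gave 21 (background 9.75%). Leaving out Control-SU replicate 2, Gem-SU replicate 2 or Control-PSC-SU replicate 1 gave 2 (background 4.41% to 6.73%).

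Gbp2 gave the smallest interaction p. It fell in PSC4, as given above, and measured 8.36, 7.97 and 10.7 CPM with Control-PSC-SU and 8.58, 16.1 and 15.6 CPM with Gem-PSC-SU in KPC4. The difference in response was -1.54 (SE 0.33, adjusted p = 0.0128 in edgeR). Ifit2 measured 18.8, 28.6 and 23.8 CPM with Control-PSC-SU and 26.2, 37.3 and 47.3 CPM with Gem-PSC-SU, and the difference was -1.42 (SE 0.32, adjusted p = 0.015 in edgeR). These 2 genes passed in every leave-one-out fit. Oasl2 measured 93.4, 119 and 117 CPM with Control-PSC-SU and 101, 198 and 217 CPM with Gem-PSC-SU (difference -1.45, SE 0.35, adjusted p = 0.0213 in edgeR). Ifit3b measured 15.3, 13.7 and 17.6 CPM with Control-PSC-SU and 13.3, 69.4 and 56.0 CPM with Gem-PSC-SU (difference -2.27, SE 0.56, adjusted p = 0.0243 in edgeR). Oasl2 and Ifit3b each missed the threshold in several leave-one-out fits. The adjusted p of Oasl2 was 0.0542 to 0.0572 without Control-SU replicate 2, Gem-SU replicate 2, Control-PSC-SU replicate 1 or Gem-PSC-SU replicate 3. That of Ifit3b was 0.0521 to 0.061 without one of these or Control-PSC-SU replicate 2. In KPC4 the groups of all 4 overlapped, since Gem-PSC-SU replicate 1 lay below the highest control.

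Of the genes that rose in PSC4, Mx1, Mx2, Rsad2, Cmpk2, Oasl1 and Usp18 had differences from -1.97 (Rsad2) to -0.19 (Usp18), none of which passed. With the block in both lines, Rsad2 and Cmpk2 passed, both with a smaller log2 rise in PSC4 than in KPC4 (adjusted p = 0.0319 and 0.0263 in edgeR). Ifi27 went from 24.2, 20.1 and 18.4 CPM to 19.1, 24.0 and 29.4 CPM in KPC4, with overlapping groups, and its difference was 1.04 (SE 0.29, adjusted p = 0.0412 in edgeR). It passed in 3 of 12 leave-one-out fits. Of the 13 members that fell in PSC4, 11 had a value above 0 in KPC4, and of the 7 that rose, 7 did. Across the 40 members, the log2 fold changes of both lines had a Pearson r of 0.63 and a Spearman rho of 0.31, as a description over genes, which are not independent replicates.

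Of the pathway above the ISGs, the ligand genes were the ones with the largest change in PSC4. Ifnb1, which encodes interferon beta, measured 0.551, 0.0631 and 0.390 CPM with Control-SU (19, 2 and 12 counts) and 7.82, 13.9 and 9.42 CPM with Gem-SU (301, 461 and 278 counts). Every Gem-SU library was far above the controls, with a log2 fold change of 4.93 (SE 0.57, adjusted p = 3.47e-04 in edgeR). Ifna4 rose as well, from 4, 0 and 0 counts to 56, 74 and 72 counts (adjusted p = 0.00153 in edgeR). These were the 2 of 10 listed ligand genes with enough counts for the test. In KPC4 Ifnb1 had 0 counts in all controls and 0, 1 and 17 counts with Gem-PSC-SU, too few to be tested.

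Of the receptors and JAK-STAT proteins, 6 of 10 tested genes passed in PSC4, 1 higher and 5 lower, where 46.3% of all genes passed, 24.3% higher and 22% lower. Ifnar2 measured 56.6, 61.2 and 55.5 CPM with Control-SU and 37.3, 30.1 and 29.8 CPM with Gem-SU (log2 fold change -0.83, SE 0.15, adjusted p = 0.00261 in edgeR). Its partner Ifnar1 had a log2 fold change of -0.11 (adjusted p = 0.54), and Ifngr1 and Ifngr2, the receptor of interferon gamma, had -0.14 and 0.13 (adjusted p = 0.495 and 0.549). Il10rb, a receptor chain for interferon lambda and interleukin-10, fell by 1.23 on the log2 scale, and Stat3, which carries interleukin-6 signals, also fell by 1.23 (adjusted p = 9.06e-04 and 2.81e-04 in edgeR). Jak1 rose by 0.52 (adjusted p = 0.0181 in edgeR), but did not pass without Control-SU replicate 1 or 3 or Gem-SU replicate 2 or 3 (adjusted p = 0.0616 to 0.0905). Ifnlr1, the other interferon lambda chain, had at most 7 counts in a PSC4 library and 322 to 598 in KPC4. In KPC4 0 of 11 genes of this list passed in edgeR, with or without the block, and 0 had an unadjusted p under 0.05.

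Of the sensors and adaptors upstream of interferon, 7 of 16 tested genes passed in PSC4, 4 higher and 3 lower, a share close to the 46.3% of all genes. Cgas, the cytosolic DNA sensor, measured 36.4, 48.4 and 32.9 CPM with Control-SU and 96.3, 102 and 110 CPM with Gem-SU (log2 fold change 1.39, SE 0.17, adjusted p = 4.79e-04 in edgeR). Irf5, a transcription factor of interferon and cytokine genes, rose by 1.65, and Aim2, a DNA sensor of the inflammasome, by 1.19 on the log2 scale (adjusted p = 0.00115 and 0.00239 in edgeR). Ticam1, the adaptor TRIF of the receptor for double-stranded RNA, fell by 1.56 on the log2 scale (adjusted p = 5.94e-04 in edgeR). In KPC4 0 of 14 passed in edgeR, 2 had an unadjusted p under 0.05, and 2 passed with the block, Cgas (log2 fold change 1.09, adjusted p = 0.0252) and the kinase gene Ikbke, named here after its values were seen.

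Of 13 negative regulators, 7 passed in PSC4, 5 higher and 2 lower, against 24.3% and 22% of all genes. Tnfaip3, the NF-κB inhibitor A20, rose by 2.31 on the log2 scale, Irf2, a repressor that competes for ISREs, by 1.19, and Ptpn2, a phosphatase of JAK and STAT proteins, by 0.81 (adjusted p = 4.04e-05, 0.00122 and 0.00404 in edgeR). Socs3, an inhibitor induced by STAT3, fell by 1.59 (adjusted p = 6.32e-04 in edgeR). In KPC4 0 of 13 passed in edgeR and 3 had an unadjusted p under 0.05, and with the block Irf2 did, going from 36.3, 41.9 and 35.4 CPM to 58.4, 86.8 and 66.3 CPM (log2 fold change 0.88, adjusted p = 0.0136).

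From a second list of 57 ISGs outside the 40, 53 were tested in PSC4. Of these 25 passed, 10 higher and 15 lower, a share near the 46.3% of all genes, with a median log2 fold change of -0.31. Oas1b rose from 24.0, 21.6 and 25.97 CPM to 82.3, 120 and 121 CPM (log2 fold change 2.18, SE 0.19, adjusted p = 1.03e-04 in edgeR). Slfn5, of the schlafen family, rose by 3.19 and the chemokine gene Cxcl10 by 1.20, while Lgals3bp, a secreted glycoprotein, fell by 1.12 on the log2 scale (adjusted p = 0.00128, 0.00167 and 0.00132 in edgeR). In KPC4 0 of 51 passed in edgeR, 23 had an unadjusted p under 0.05 (17% of all genes), 22 of them higher (10.9% of all genes), and the median was 0.65. With the block 10 passed, all higher, where 8.85% of all genes passed in either direction and 6.07% were higher. Cxcl10 went from 3.11, 7.23 and 3.82 CPM to 93.7, 404 and 349 CPM in KPC4, a log2 fold change of 5.90 (SE 0.62, adjusted p = 0.0863 in edgeR, and 7.55e-04 with the block).

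**Figure D5:**
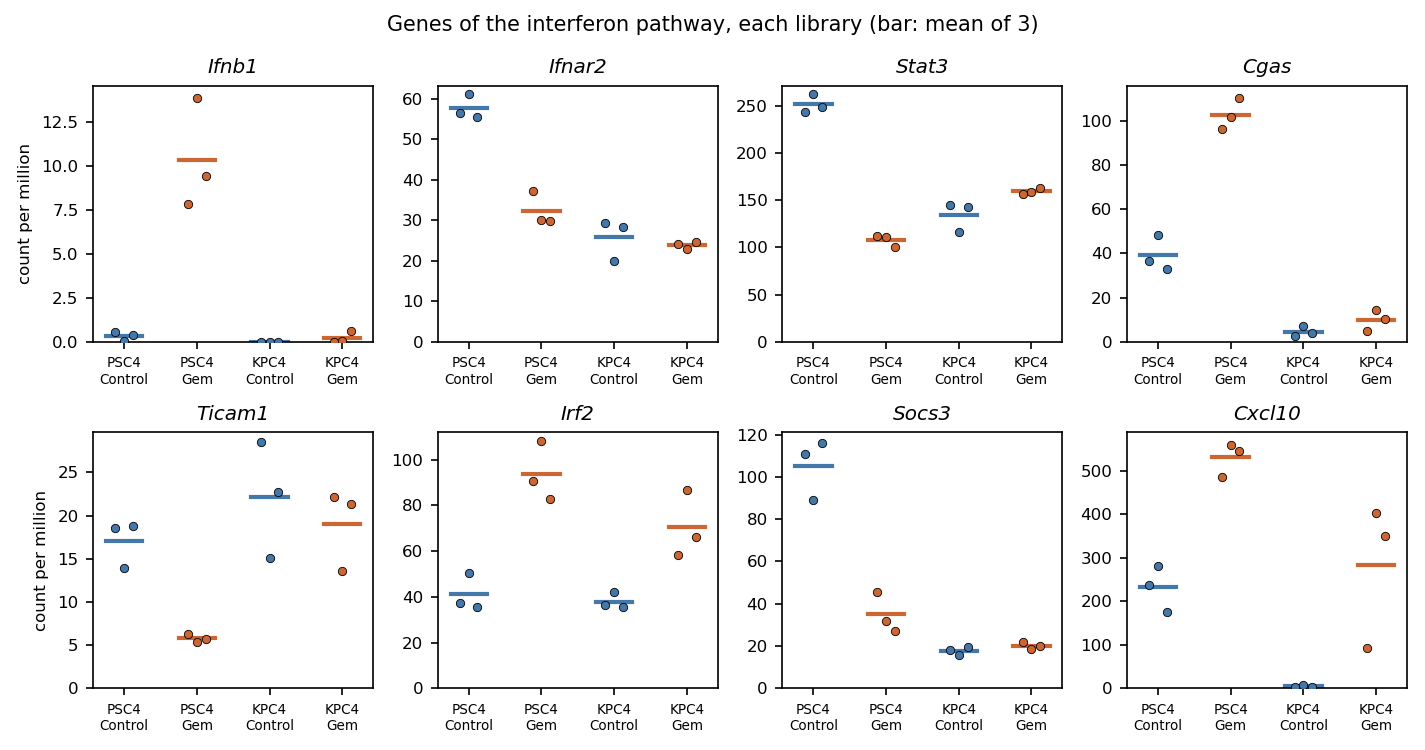
CPM of 8 genes of the interferon pathway in each library, with a bar at the mean of 3, in the control (blue) and Gem (orange) groups of both lines. Ifnb1, Cgas, Irf2 and Cxcl10 are higher and Ifnar2, Stat3, Ticam1 and Socs3 lower in every Gem-SU library than in any Control-SU library of PSC4.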

How the data were processed

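Total RNA of the 12 samples was sequenced by Illumina technology, per the labels' protocols. The authors deposited whole-number counts per gene and library for each line. The tools named by the submitters' processing notes are FastQC, Trim Galore 0.6.10, cutadapt 5.2, Salmon, R 4.5.1 and DESeq2, with build GRCm39, while annotation and filters are not given in the sources used here. Counts from Salmon divide reads of near-identical genes by estimate, so members that share sequence are less certain. The authors' deposited comparison tables hold log2 fold changes and p-values and were used only for the count of KPC4 members named as theirs. The number of unused sample columns was 0.

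Identifiers were matched to symbols by GENCODE M21 (99.7% in each table). The libraries of a line had their own fit in edgeR 4.0.16 under R 4.3.3 (filterByExpr, TMM, robust quasi-likelihood test, Benjamini-Hochberg over all genes tested, threshold 0.05), and the difference between lines in 1 fit of 12 libraries. The SE of a log2 fold change is its size divided by the square root of the F statistic. CPM are scaled by TMM within a line unless stated. The 3 biological replicates come with no statement on separate cultures, so p-values measure the spread between these samples, which may be technical. No replicate pair agreed within counting noise (chi-square per degree of freedom at least 32). Depth makes counting error small except for genes near the 3-count floor, which covers counting error only.

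Replicate numbers are shared between groups. Same-numbered KPC4 libraries correlated in their deviations at 0.45, 0.545 and 0.355, all above 0.1, and were taken as paired from the values alone. In PSC4 the correlations were 0.599, -0.032 and 0.101, so no pairing was assumed.

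Members given by library were, in PSC4, the 7 largest increases and decreases that passed with a mean of at least 50 counts, in KPC4 the 6 with the smallest p at that mean, and the 4 with the smallest interaction p. From each pathway list at most 4 genes with the smallest p were named besides Ifnb1 and the receptors, and 1 gene of these lists is not reported here by name. Members and lists were chosen with earlier results of these data known. Alternatives were DESeq2 1.42.0, limma-voom (limma 3.58.1), DESeq2 size factors, other filters (none, or a minimum of 10 counts throughout), adding the replicate number as a block, 1 joint fit and leaving out each library. The edgeR fits were also run on simulated counts with 200 changed genes. Those counts held no shared replicate effect and no outlying library, so they do not cover these features of the data. Sequence sharing was measured in 31-base words of GENCODE M21 transcripts.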

Additional observations from a re-analysis of the deposited data

Results flagged for a closer look

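The response differed between the lines by the interaction test (edgeR, adjusted p under 0.05) for 9 of the 40 members and for 6 of the 22 pathway genes named, against 9.85% of all genes tested. Most of the 22 were named for the smallest p of their list in either line, so that their count is over genes picked by their values. As the PSC4 log2 fold change minus that of KPC4, the members' values were -1.54 for Gbp2, -1.42 for Ifit2, -1.45 for Oasl2, -2.27 for Ifit3b (not passed with the replicate block, adjusted p = 0.0731), -2.34 for Ifit3, -1.75 for Oas2, -1.48 for Gbp7, -2.001 for Zbp1 and 1.04 for Ifi27. For the pathway genes they were -1.52 for Stat3, -4.74 for Cxcl10, -1.83 for Socs3, -1.19 for Il10rb, -0.91 for Lgals3bp and -1.40 for Ticam1. Stat3, Socs3, Il10rb, Lgals3bp and Ticam1 fell in PSC4, whereas the Cxcl10 value reflects a smaller rise in PSC4 (1.20) than the increase in KPC4 (5.90). Of the 9 members, only Gbp2 and Ifit2 passed in every leave-one-out fit. Among these fits Zbp1 passed only without Gem-PSC-SU replicate 1, and Oas2 only without that library or Control-PSC-SU replicate 2 or 3. Ifit3 and Gbp7 each missed the threshold in several of them. Limma-voom did not call Ifit3, Ifit3b or Zbp1. Since line and transfer step go together, which of them the differences belong to cannot be told apart.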

How the results depend on the processing

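The count of members that passed in PSC4 moved by more than 1.5 times in 2 settings, to 8 lower in 1 fit of all 12 libraries and to 7 lower without Gem-SU replicate 2. Of all genes tested, 40.1% and 29.8% passed there in either direction, against 46.3% in the main fit. Leaving out each library gave 6 to 9 higher and 7 to 12 lower, where 29.8% to 49.9% of all genes passed. In KPC4 the count of higher members was 7 in DESeq2 and 7 with the replicate block, where 5.95% and 8.85% of all genes passed in either direction. It was 15 in DESeq2 with the block (15.8% of all genes) and 8 in 1 fit of all 12 libraries (4.47%). When a library was left out it was 0 to 20, where 0% to 8.3% of all genes passed. For the difference between lines, the count of lower members was 13 in DESeq2, 5 in limma-voom and 18 with the replicate block in both lines. Of all genes tested, 15.6%, 8.74% and 21.9% passed there in either direction. When a library was left out, 2 to 21 members were lower and 0 to 1 higher, where 4.41% to 14.5% of all genes passed. The control levels gave 31 to 36 members higher in PSC4 and 1 lower when a library was left out. In these fits 35.8% to 45.4% of all genes passed in either direction. In PSC4, where the numbers did not pair the libraries, the block gave 8 higher and 16 lower, against 54.4% of all genes in either direction.

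Of the 40 members, 8 changed sign in at least 1 setting in PSC4, 7 in KPC4 and 8 for the difference between lines. None of these had passed, and of them Mx2 passed in 1 setting, for the difference between lines without Gem-PSC-SU replicate 1 (adjusted p = 0.0394). Among the pathway genes named, the sign turned in 9 cases, all of genes that did not pass in either setting. With each library left out in turn, the KPC4 values ran from -0.35 to 0.069 for Ifngr1, from -0.13 to 0.29 for Ifngr2, from -0.45 to 0.087 for Ifnlr1, from -0.20 to 0.040 for Il10rb and from -0.41 to 0.0054 for Ticam1, and the PSC4 values of Ifngr2 from -0.0077 to 0.23. The cause of these changes was not tested. Depth limits the ligand genes, as Ifnb1 in KPC4 had too few counts for the test.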
